A study of Mus musculus with 26 samples.

Results

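The annexin, ferlin and membrane repair genes examined here were 10 mouse genes, namely the annexins Anxa1, Anxa2, Anxa4, Anxa5, Anxa6 and Anxa8, the ferlins Dysf and Myof, and the muscle repair genes Trim72 and Cav3. They were taken by gene symbol from the FPKM values of both experiments (fragment counts scaled to exon length and a factor per library). They were 10 of the 53465 genes listed for muscle and 10 of the 55487 listed for C2C12 cells. The study asked how the methyltransferase gene Mettl3 takes part in muscle regeneration and myoblast differentiation. Its muscle experiment followed the tibialis anterior muscle of adult C57BL/6J mice, male per the study's methods, that were injected with cardiotoxin (CTX), a snake venom toxin that lyses muscle fibres, and sampled at days 0, 1, 3, 5 and 10 with 2 libraries per day. The methods name saline as the control injection, and the labels do not say whether the day 0 muscle was injected with it. Its cell experiment used C2C12, an immortalised mouse myoblast line, as control (Ctrl) and Mettl3 knockdown (Cas9M3) cells in growth medium (GM) and at day 3 of differentiation medium (DM3), with 2 libraries per group. The knockdown used dCas9-KRAB, an inactive Cas9 fused to a repressor and targeted to the Mettl3 promoter, in a line selected with puromycin, whereas the design text calls these derivatives knockouts.

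A torn plasma membrane lets in calcium, and the repair machinery answers to that calcium. Annexins bind acidic phospholipids in a calcium-dependent way and gather at the wound edge, ferlins carry several C2 domains and bring vesicles to fuse with the membrane, and in muscle Trim72 (also called MG53) and the caveolin Cav3 help move and place the repair vesicles. Loss of dysferlin, the product of Dysf, causes limb-girdle muscular dystrophy, and mutations of the human CAV3 gene cause a related group of muscle diseases. Annexins and myoferlin are also made by macrophages, fibroblasts and other cells, so in whole muscle, fewer cells of a type and less RNA per cell cannot be told apart.

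In GRCm38 with GENCODE M21, the members were protein-coding genes at chr19:20373428-20390944 (Anxa1, minus strand), chr9:69453620-69491795 (Anxa2, plus strand), chr6:86736840-86793584 (Anxa4, minus strand), chr3:36448923-36475894 (Anxa5, minus strand), chr11:54979108-55033445 (Anxa6, minus strand), chr14:34085981-34100571 (Anxa8, plus strand), chr6:84008590-84211060 (Dysf, plus strand), chr19:37899036-38043577 (Myof, minus strand), chr7:128003949-128011033 (Trim72, plus strand) and chr6:112459505-112472872 (Cav3, plus strand). Their values were sums over exons. The antisense gene Gm15533 shared 617 exon bases with Trim72, 27.6% of the exon bases of Trim72, while such overlaps took at most 4.23% in the other members. Whether reads were counted by strand is not given in the sources used here, so reads of Trim72 and Gm15533 may not be told apart.

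The 250 bases before the RefSeq start (GRCm38.p6) are shown for Myof, the member with the largest change after injury, and for Trim72 and Cav3, the muscle repair genes that were not called, so that the start regions of these genes can be read beside their values. Capitals mark E-boxes (CANNTG), the letters that myogenic bHLH factors can bind. The windows lie at chr19:38043578-38043827 for Myof (minus strand), chr7:128004128-128004377 for Trim72 (plus strand) and chr6:112459255-112459504 for Cav3 (plus strand), each written 5′ to 3′ on its gene's strand. The Trim72 window lay in an intron of the longer gene model of GENCODE.
Myof: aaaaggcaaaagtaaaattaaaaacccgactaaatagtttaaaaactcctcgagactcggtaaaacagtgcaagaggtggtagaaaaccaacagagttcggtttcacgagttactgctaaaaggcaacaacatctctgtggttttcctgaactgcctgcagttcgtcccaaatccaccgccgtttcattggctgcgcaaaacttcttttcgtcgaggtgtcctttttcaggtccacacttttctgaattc
Trim72: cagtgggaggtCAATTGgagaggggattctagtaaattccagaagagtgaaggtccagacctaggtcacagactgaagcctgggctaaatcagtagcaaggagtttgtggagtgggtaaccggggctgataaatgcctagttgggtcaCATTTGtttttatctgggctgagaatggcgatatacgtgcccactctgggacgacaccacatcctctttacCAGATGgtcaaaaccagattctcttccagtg
Cav3: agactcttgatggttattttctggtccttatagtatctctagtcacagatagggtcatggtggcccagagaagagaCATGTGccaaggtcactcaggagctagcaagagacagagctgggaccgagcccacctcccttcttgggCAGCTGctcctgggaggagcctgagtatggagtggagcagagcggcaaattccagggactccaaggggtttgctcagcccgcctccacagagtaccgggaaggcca

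The Trim72 window held 3 E-boxes, the Cav3 window 2 and the Myof window 0. Of the 11 windows that RefSeq gave for 9 of the 10 members, 4 held an E-box on either strand, those of Anxa5, Trim72, Cav3 and the second start of Anxa4, whereas 66.2% of 32851 windows of the same length held one. An AP-1 site (TGANTCA), present in 6.75% of all windows, was found in the Anxa2 window, and the letters TATAAA, present in 12.4% of all windows, were found in those of Anxa1 and Anxa2. All 250 bases of the Anxa1 window and 63 of the Anxa2 window were exon bases of the gene itself in GENCODE. CArG boxes and MEF2 sites, present in 1.47% and 1.69% of all windows, were found in 0 of the 11. Motifs were counted separately on both strands, so that a base could belong to more than one of them.

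Depth ranged from 14170000 to 18820000 reads on genes in the muscle libraries and from 14230000 to 29570000 in the C2C12 libraries, and 1 read on a gene of 1 kb was worth at most 0.0817 and 0.104 FPKM. The female transcript Xist stood at 5.77 to 10.0 FPKM in both day 0 libraries, both day 10 libraries and day 3 replicate 2, and at or under 0.152 FPKM in the other 5 muscle libraries, which goes against the stated male sex. Days 1 and 5 thus differed from day 0 in this sign as well as in time, which cannot be told apart there, and each comparison was also fitted with an Xist term, which rests on the day 3 libraries alone. Summed FPKM of 5 macrophage markers was 35.1 and 72.0 at day 0, 290 and 338 at day 1, 1215 and 1218 at day 3, 327 and 349 at day 5 and 47.2 and 208 at day 10, and that of 7 fibre markers was 55664 to 62233 at day 0 and 15046 to 18838 at day 3. In C2C12 cells, the highest gene of each replicate 2 library took 8.03% to 27.3% of the reads, most in Ctrl GM. It was Gm23935, annotated as a miRNA, except in Ctrl DM3, where it was a ribosomal RNA gene. The highest gene of the replicate 1 libraries took 1.32% to 1.74%.

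In uninjured muscle, the genes fell into an abundant set and a scarce set. Trim72 stood highest, at 111 and 136 FPKM, followed by Anxa6 at 81.7 and 85.4 and Cav3 at 46.0 and 53.2, and the libraries of these neighbours did not overlap. Anxa5 (15.3 and 25.5), Dysf (9.85 and 14.7), Anxa2 (8.61 and 14.8), Anxa1 (3.51 and 6.17) and Anxa4 (1.54 and 3.40) came next, and of these neighbours Dysf and Anxa2 overlapped. Myof, at 0.338 and 0.630 FPKM, and Anxa8, at 0.0854 and 0.199, were lowest, Anxa8 with only 2 and 5 reads. Anxa6, the largest annexin and a component of the repair cap on injured fibres, made up 73.8% and 63.1% of the summed FPKM of the 6 annexins.

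**Figure D1:**
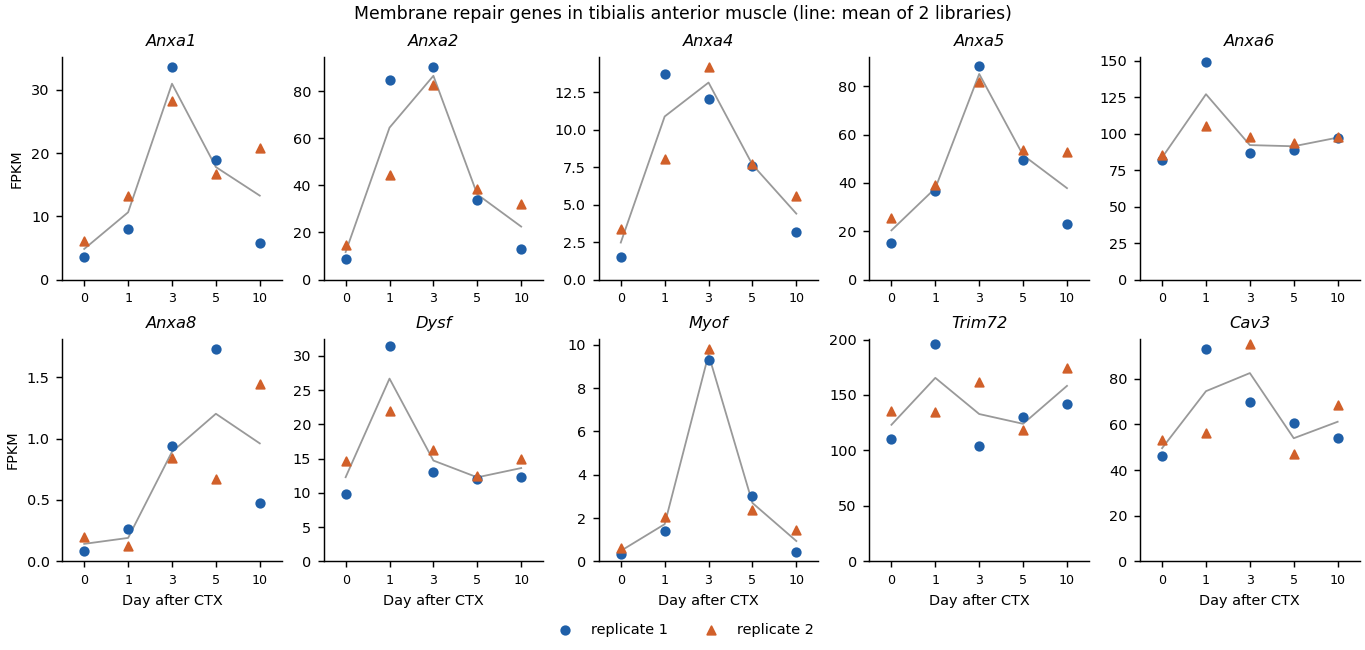
FPKM of the 10 genes (1 panel each, linear axes from 0) against the day after CTX, with replicate 1 as circles, replicate 2 as triangles and the line through the means of 2 libraries. Anxa1, Anxa2, Anxa4, Anxa5 and Myof peaked at day 3, while Anxa6, Dysf, Trim72 and Cav3 stayed within a few fold of their day 0 levels.

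At day 3 after CTX, 6 of the 10 genes had risen against day 0 and 0 had fallen (limma, Benjamini-Hochberg adjusted p at most 0.05), in a comparison in which 48.8% of the 16753 genes tested were called, with 24.5% of all genes tested higher and 24.3% lower. The genes that rose were Myof and the annexins Anxa1, Anxa2, Anxa4, Anxa5 and Anxa8, and those not called were Anxa6, Dysf, Trim72 and Cav3. Anxa8 was tested only because it reached 0.5 FPKM at day 3 and later. Its call was lost with quantile normalization and with the Xist term. The median log2 fold change of the 10 genes was 2.09, beside 0.01 over all genes tested. The libraries of day 3 lay wholly above those of day 0 for 8 of the 10 genes, beside 38.9% of all genes tested. Macrophage markers were higher in 5 of 5, fibroblast markers in 3 of 5 and myoblast markers in 4 of 5, and fibre markers were lower in 7 of 7, and the part of such changes in cell content in the values of these genes was not tested.

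Myof, the ferlin of myoblast fusion that is also made by many other cells, changed most. It stood at 0.338 and 0.630 FPKM at day 0, 1.39 and 2.05 at day 1, 9.31 and 9.81 at day 3, 3.03 and 2.37 at day 5 and 0.447 and 1.43 at day 10. Both day 3 libraries were far above all others, with 2315 and 2500 reads against 53 and 106 at day 0. The rise from day 0 to day 3 was 4.09 on the log2(FPKM + 0.1) scale (SE 0.47, adjusted p = 0.000593), or 17.1-fold. It was also called with quantile normalization (3.88, adjusted p = 0.000487) and with the Xist term (4.13, adjusted p = 0.00604). Over 20 alternatives the rise ranged from 2.84 to 4.46, but some of these cannot change the estimate, such as the fit of the compared groups alone (4.09).

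Anxa2, which pairs with S100a10 and links actin to the membrane, stood at 8.61 and 14.8 FPKM at day 0, 84.8 and 44.2 at day 1, 90.4 and 82.7 at day 3, 33.8 and 38.5 at day 5 and 13.0 and 32.0 at day 10. Its level was already high at day 1, with no overlap with day 0, and day 3 was 2.93 above day 0 (SE 0.47, adjusted p = 0.00201). Anxa4, an annexin that bends membranes at wound edges, stood at 1.54 and 3.40, 13.7 and 8.08, 12.1 and 14.2, 7.60 and 7.74, and 3.20 and 5.60 FPKM at days 0, 1, 3, 5 and 10. The libraries of days 1 and 3 overlapped each other and lay above those of day 0, and day 3 was 2.46 above day 0 (SE 0.41, adjusted p = 0.00249).

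Anxa1, an annexin linked to glucocorticoid action and the resolution of inflammation, stood at 3.51 and 6.17 FPKM at day 0, 8.06 and 13.2 at day 1, 33.7 and 28.3 at day 3, 18.9 and 16.7 at day 5 and 5.79 and 20.8 at day 10. Unlike Anxa2, it was highest at day 3 with no overlap with day 1, and day 3 was 2.70 above day 0 (SE 0.56, adjusted p = 0.00574). Anxa5, which forms lattices on membrane that exposes phosphatidylserine, stood at 15.3 and 25.5, 36.5 and 39.1, 88.5 and 81.8, 49.4 and 53.6, and 22.8 and 52.9 FPKM at days 0, 1, 3, 5 and 10. Its day 3 libraries were above all others, and day 3 was 2.10 above day 0 (SE 0.38, adjusted p = 0.00323).

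Anxa8, an annexin best known from epithelia, was scarce throughout and passed the filter of 0.5 FPKM only through libraries of days 3, 5 and 10. Its reads numbered 2 and 5 at day 0, 7 and 3 at day 1, 35 and 32 at day 3, 53 and 25 at day 5 and 11 and 36 at day 10, which gave 0.0854 and 0.199, 0.260 and 0.121, 0.943 and 0.841, 1.73 and 0.674, and 0.478 and 1.44 FPKM. The libraries of days 3, 5 and 10 all lay above those of days 0 and 1. Day 3 was 2.07 above day 0 (SE 0.60, adjusted p = 0.0226), a call that was lost with quantile normalization (1.37, adjusted p = 0.0805) and with the Xist term (adjusted p = 0.0934).

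Of the genes not called at day 3, Anxa6 stood at 81.7 and 85.4 FPKM at day 0, 149 and 105 at day 1, 86.8 and 97.4 at day 3, 88.8 and 93.8 at day 5 and 97.0 and 97.5 at day 10. Outside day 1 all its libraries fell between 81.7 and 97.5 FPKM, and the difference of day 3 from day 0 was 0.14 (SE 0.17, adjusted p = 0.538). Dysf stood at 9.85 and 14.7, 31.4 and 21.95, 13.1 and 16.3, 12.1 and 12.4, and 12.3 and 14.96 FPKM at days 0, 1, 3, 5 and 10, high only at day 1, and its difference of day 3 from day 0 was 0.28 (SE 0.25, adjusted p = 0.381). Dysf ranged from -0.0084 to 0.57 when single libraries were left out, the negative value without day 0 replicate 1.

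Trim72, which nucleates repair vesicles in muscle, stood at 111 and 136 FPKM at day 0, 196 and 135 at day 1, 104 and 162 at day 3, 130 and 118 at day 5 and 142 and 174 at day 10. Its day 0 libraries overlapped with those of days 1, 3 and 5, and the difference of day 3 from day 0 was 0.08 (SE 0.26, adjusted p = 0.822), with -0.06 without day 0 replicate 1 and -0.24 without day 3 replicate 2. Cav3, the caveolin of muscle caveolae, stood at 46.0 and 53.2, 93.1 and 56.0, 70.0 and 95.1, 60.8 and 47.1, and 54.0 and 68.4 FPKM at days 0, 1, 3, 5 and 10. Both day 3 libraries of Cav3 were above those of day 0, and the difference of 0.72 was not called (SE 0.28, adjusted p = 0.0644). With quantile normalization, which moved the median of all genes by -0.12 at day 3 against day 0, Anxa6 (0.63, adjusted p = 0.0115) and Cav3 (1.14, adjusted p = 0.00928) were called higher. Fibre markers were lower at day 3 in 7 of 7, and a difference between these markers and Anxa6, Dysf, Trim72 and Cav3 was not tested.

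**Figure D2:**
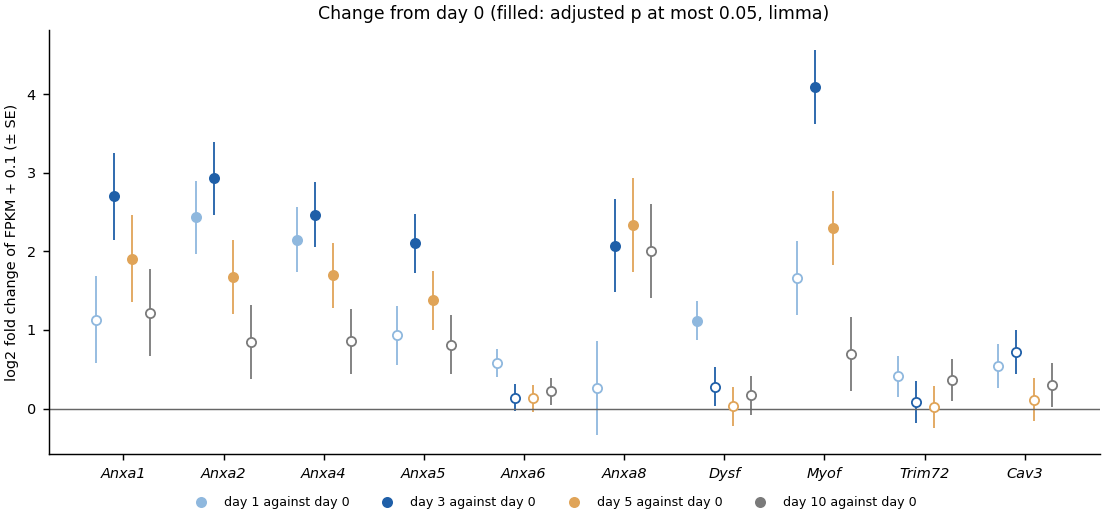
Log2 fold change of FPKM + 0.1 against day 0 for each gene at days 1, 3, 5 and 10, with bars of 1 SE from the limma fit and filled points where the adjusted p was at most 0.05. Myof at day 3 is the highest point at 4.09, and all 10 day 10 points are open.

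At day 1 against day 0, 3 of the 10 genes were called, and the order in which the genes moved was not tested. Anxa2 rose by 2.43 (SE 0.47, adjusted p = 0.0333), Anxa4 by 2.15 (SE 0.41, adjusted p = 0.0333) and Dysf by 1.12 (SE 0.25, adjusted p = 0.0444), in a comparison in which 6% of all genes tested were called and 3.53% were higher. The day 1 libraries lay wholly above those of day 0 for 8 of the 10 genes, beside 25.5% of all genes, and the members' median was 1.03, beside 0 over all genes. Differences of 1.66 for Myof (adjusted p = 0.0781), 1.13 for Anxa1 (0.239), 0.93 for Anxa5 (0.164), 0.58 for Anxa6 (0.0873) and 0.55 for Cav3 (0.255) were not called. The 3 calls depended on single libraries, since 0 genes were called without day 0 replicate 1, day 1 replicate 1 or any 1 of the day 3 and day 5 libraries, and 1 without day 0 replicate 2. With the Xist term 0 were called, with values of 2.30 for Anxa2, 2.38 for Anxa4 and 1.43 for Dysf.

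From day 1 to day 3, Myof rose further by 2.43 (SE 0.47, adjusted p = 0.00942) and Dysf fell by 0.84 (SE 0.25, adjusted p = 0.0370), while 31.1% of all genes tested were called, 14.5% higher and 16.6% lower. The libraries of both ferlins did not overlap between the days, and those of 4 genes lay wholly above and of 2 wholly below day 1, beside 32.6% and 34.7% of all genes. Anxa5 (1.17, adjusted p = 0.05003), Anxa8 (1.81, adjusted p = 0.0529) and Anxa1 (1.57, adjusted p = 0.0659) had positive differences just outside the threshold, and Anxa6 had a negative one (-0.44, adjusted p = 0.0895). Quantile normalization called 3 genes higher and 0 lower, adding Anxa1 and Anxa5 and losing Dysf (-0.67, adjusted p = 0.0691). It called 5727 of all genes tested, 43.7% of these higher, in place of 5213 with 46.7% higher. Without day 3 replicate 2, 0 genes were called, without either day 10 library 5 were, and 1 was without day 1 replicate 1, day 3 replicate 1 or either day 5 library. With the Xist term 0 were called, with 2.40 for Myof (adjusted p = 0.0660) and -0.997 for Dysf (adjusted p = 0.0918).

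At day 5, Anxa1, Anxa2, Anxa4, Anxa5, Anxa8 and Myof were called higher than at day 0, in a comparison with 25.5% of all genes called and 12.9% higher. The day 5 libraries of 7 of the 10 genes lay wholly above those of day 0, beside 34.6% of all genes. The differences were 2.34 for Anxa8 (SE 0.60, adjusted p = 0.0293), 2.30 for Myof (SE 0.47, adjusted p = 0.0178), 1.91 for Anxa1 (adjusted p = 0.0416), 1.70 for Anxa4 (adjusted p = 0.0261), 1.67 for Anxa2 (adjusted p = 0.0378) and 1.38 for Anxa5 (adjusted p = 0.0355). Against day 3, Myof had fallen by 1.80 (SE 0.47, adjusted p = 0.0474), with 12.7% of all genes called and 5.46% lower, and the libraries of 7 of the 10 genes lay wholly below those of day 3, beside 33.4% of all genes. Anxa8, which passed the filter only through the later days, was not called at day 5 with quantile normalization (1.70, adjusted p = 0.0695). The day 5 calls went to 0 without day 0 replicate 1 or either day 5 library, to 2 without day 3 replicate 1, to 3 without day 3 replicate 2 and to 0 with the Xist term. With that term the differences were 2.37 for Myof (SE 0.90), 2.19 for Anxa8 (SE 1.12), 1.93 for Anxa4 (SE 0.78), 1.66 for Anxa1 (SE 1.04), 1.54 for Anxa2 (SE 0.88) and 1.26 for Anxa5 (SE 0.71). Among the fits that left out 1 library, the fall of Myof was called only without a day 10 library, and with the Xist term it was -1.76 (adjusted p = 0.211).

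At day 10, limma called 0 of the 10 genes against day 0, and 1 had an unadjusted p under 0.05, Anxa8 (2.00, adjusted p = 0.404), while 1 of all genes tested (0.00597%) was called and 1697 had an unadjusted p under 0.05. Libraries of 4 genes, Anxa6, Anxa8, Trim72 and Cav3, lay wholly above those of day 0, beside 19.2% of all genes. Against day 3, Myof (-3.40, SE 0.47, adjusted p = 0.00180), Anxa2 (-2.08, SE 0.47, adjusted p = 0.0114), Anxa4 (-1.61, SE 0.41, adjusted p = 0.0192) and Anxa5 (-1.29, SE 0.38, adjusted p = 0.0308) fell, with 37.9% of all genes called and 18.8% lower. The day 10 libraries of 6 of the 10 genes lay wholly below those of day 3, beside 37.1% of all genes. Anxa1 (-1.48, adjusted p = 0.0697) was not called. Its day 10 libraries stood at 5.79 and 20.8 FPKM, its widest spread within a day. In replicate 2 the marker sums of macrophages (208 against 47.2), fibroblasts (371 against 151) and endothelium (78.1 against 37.3) were also higher. Those of fibres (58866 against 77488) and myoblasts (949 against 1036) were lower. The part of these differences in the spread of Anxa1 was not tested. Without day 3 replicate 1, day 3 replicate 2 or day 10 replicate 1, 1 gene was called in place of 4, and with the Xist term the one called was Myof (-3.44, adjusted p = 0.0144). The values of the others with this term were -2.01 for Anxa2 (adjusted p = 0.0625), -1.72 for Anxa4 (adjusted p = 0.0672) and -1.23 for Anxa5 (adjusted p = 0.124).

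**Figure D3:**
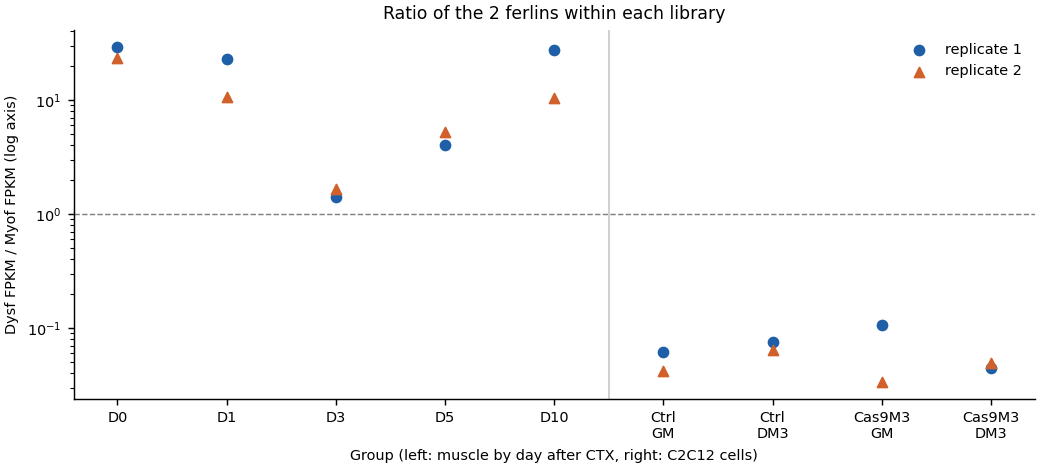
Ratio of Dysf to Myof FPKM in each library on a log axis, for muscle by day (left) and C2C12 groups (right), with replicate 1 as circles and replicate 2 as triangles and a dashed line at 1. The ratio is lowest among muscle libraries at day 3, at 1.41 and 1.66, and lies at or under 0.107 in all 8 C2C12 libraries.

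Because both ferlins were read from the same libraries, their ratio does not depend on the factor per library. Quantile normalization is not such a factor and can change it. Dysf exceeded Myof 29.2-fold and 23.4-fold at day 0, 22.7-fold and 10.7-fold at day 1, 1.41-fold and 1.66-fold at day 3, 3.99-fold and 5.26-fold at day 5 and 27.5-fold and 10.46-fold at day 10. The day 3 ratios were lower than those of every other day without overlap. The day 3 library without Xist gave 1.41 and the one with Xist gave 1.66, and the part of Xist status in the ratio was not tested. In C2C12 cells the order was the other way round, with ratios from 0.0337 to 0.107.

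The make-up of the annexin RNA shifted in the same libraries. The share of Anxa6 in the summed FPKM of the 6 annexins went from 73.8% and 63.1% at day 0 to 51.0% and 50.03% at day 1 and 27.8% and 31.9% at day 3, and stood at 44.4% and 44.4% at day 5 and 68.2% and 46.4% at day 10. The share of Anxa2 was 7.77% and 10.9% at day 0, 29.0% and 21.1% at day 1 and 28.9% and 27.1% at day 3. Anxa6 thus took the largest share in every muscle library except day 3 replicate 1, in which Anxa2 did. In C2C12 cells, Anxa6 took 7.36% to 13.1% outside Ctrl DM3 and 21.5% and 20.4% in Ctrl DM3.

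**Figure D4:**
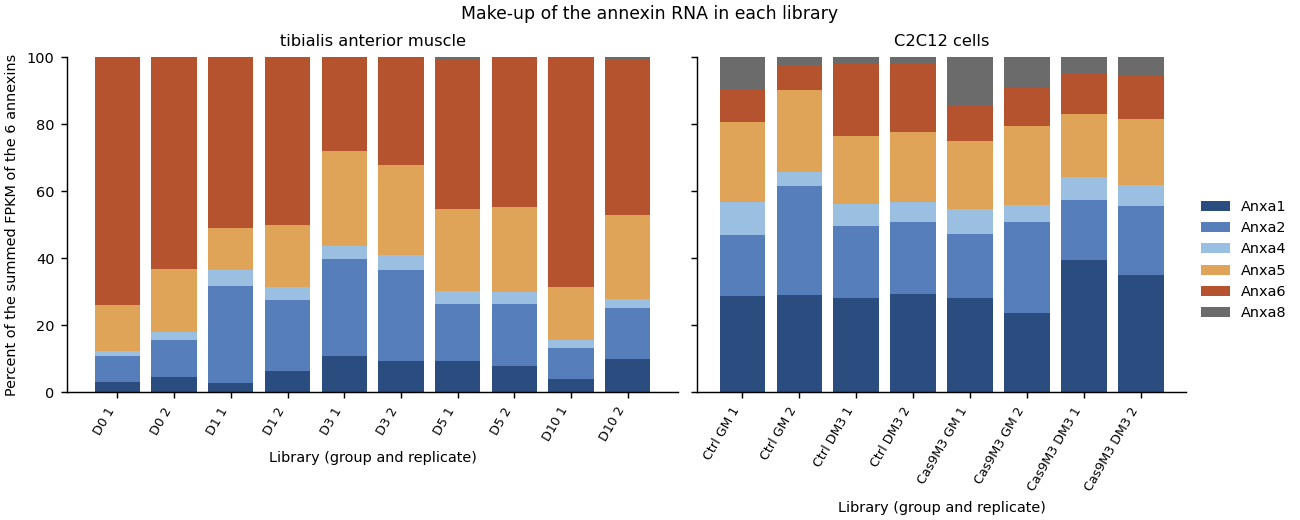
Percent of the summed FPKM of the 6 annexins taken by each annexin, in stacked bars from 0 to 100, 1 bar per library, for muscle (left) and C2C12 cells (right). The Anxa6 part is smallest among muscle libraries at day 3 (27.8% and 31.9%), and in C2C12 cells it is larger in Ctrl DM3 (21.5% and 20.4%) than in the other groups.

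Genes that work with these 10 were counted by list at day 3 against day 0, beside 24.5% of all genes tested higher and 24.3% lower. S100 proteins that bind annexins were higher at day 3 in 4 of 4, with a median log2 fold change of 2.75, S100a4 having the largest (3.27, SE 0.54, adjusted p = 0.00228) and S100a11 the highest level of the list in both experiments. The other annexins were higher in 2 of 4 tested, led by Anxa7 (1.25, adjusted p = 0.0182), and the highest of them in muscle, Anxa11, was not called. Of the other ferlins 0 of 2 were called. Of 6 caveolins and cavins, Cavin3 was higher (1.59, adjusted p = 0.00769), and Cavin4, the highest of them in muscle, was not called. Of 4 calpains, which cleave dysferlin among other proteins, Capn2 was higher (0.80, adjusted p = 0.0182). The highest genes of the remaining lists in muscle were Bin1, Capns1, Chmp4b and, among ferlins, the scarce Fer1l5.

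ESCRT genes, which pinch off damaged membrane, were higher in 1 and lower in 3 of 11 at day 3, with the largest difference in Vps4a, the ATPase that takes the complex apart (-0.998, SE 0.11, adjusted p = 0.000549). Dysferlin partners and trafficking genes were higher in 5 and lower in 2 of 14 tested, led by Ahnak2 (2.37, adjusted p = 0.00794). The counts of both lists stand beside the 24.5% of all genes higher and 24.3% lower. At day 1, the S100 genes were already higher in 4 of 4, beside 3.53% of all genes tested. Of the other annexins 1 of 4 (Anxa7, 1.98, adjusted p = 0.0278) was higher, as were Capn2 and the partners Ahnak, Ahnak2 and Ehd1, with 0 lower in any list. At day 10 against day 0, 0 genes of these lists were called, beside 0.00597% of all genes tested.

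Across the 10 muscle libraries, Pearson's r of log2(FPKM + 0.1) was 0.98 between Anxa1 and Anxa5, 0.98 between Anxa2 and Anxa4, 0.95 between Anxa5 and Myof and 0.91 between Anxa6 and Dysf, but 0.16 between Dysf and Myof. Among all genes tested, Anxa5 had the pattern most like Anxa1 (0.983), Gm15512 was most like Anxa2 (0.994) and Anxa4 (0.992), Lhfpl2 most like Anxa5 (0.995) and Sla most like Myof (0.994). Those most like 4 of the others were Ippk for Anxa6 (0.966), Bahd1 for Cav3 (0.963), Slc30a1 for Dysf (0.946) and Gm15533, the antisense gene that shares exon bases, for Trim72 (0.914). These are descriptions over libraries that share day and depth.

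In C2C12 cells, Mettl3 checked the labels, at 4.70 and 5.65 FPKM in Ctrl GM, 4.68 and 5.15 in Ctrl DM3, 0.331 and 0.118 in Cas9M3 GM and 0.148 and 0.0805 in Cas9M3 DM3. Knockdown libraries lay far below control libraries in both media, with a difference of -4.10 in GM (SE 0.40, adjusted p = 0.188) and -4.56 at DM3 (SE 0.40, adjusted p = 0.0187). The 10 genes had another order there than in muscle, with Anxa1, Anxa2 and Anxa5 above all the others, except that Anxa6 overlapped with Anxa2 and Anxa5 in Ctrl DM3, and with Dysf, Trim72 and Cav3 at the bottom. Levels between the 2 experiments are not on one scale, and no test was made across them. Of the other cell types, endothelial markers summed to at most 0.197 FPKM and lymphocyte markers to at most 0.0221, and fibroblast markers to 289 to 808. The sum of 6 macrophage markers was 1.89 to 10.1 FPKM, mostly from Cd68 and Lyz2, with Adgre1 and Itgam at 0 in all 8 libraries. It was higher in Cas9M3 DM3 (7.19 and 8.40) than in Ctrl DM3 (2.34 and 2.27). Its part in the differences between these groups was not tested.

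**Figure D5:**
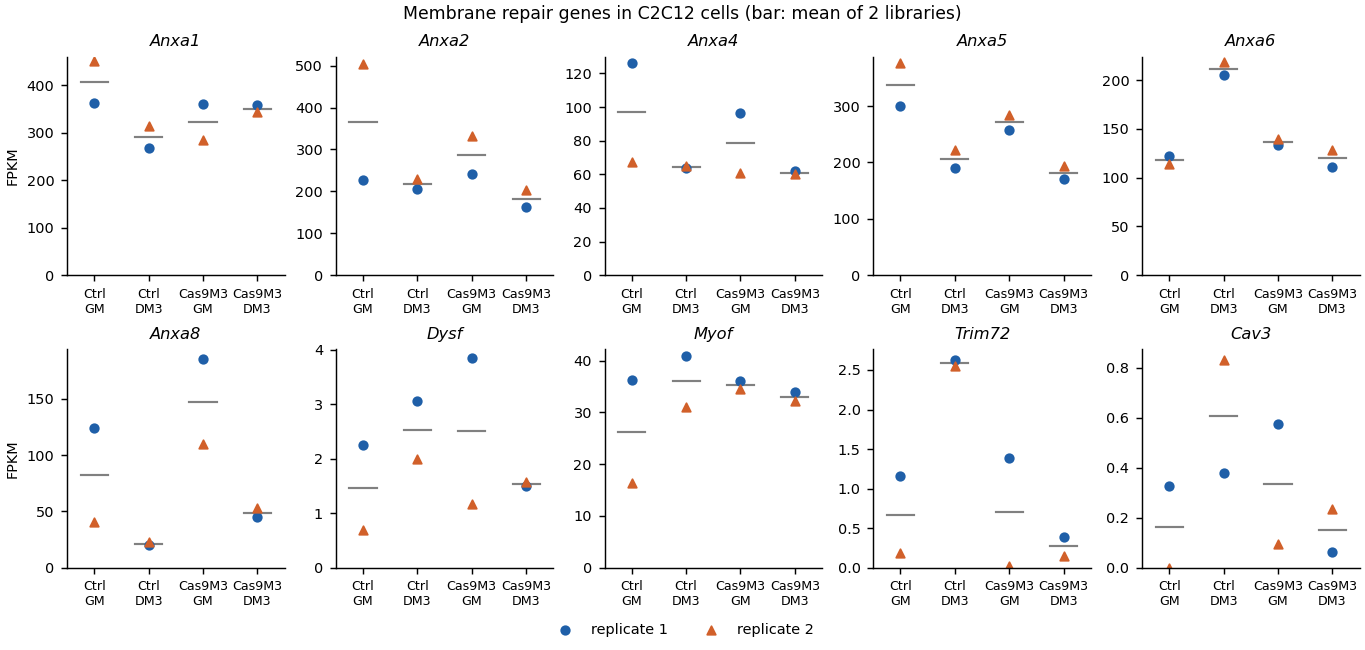
FPKM of the 10 genes (1 panel each, linear axes from 0) in the 4 C2C12 groups, with replicate 1 as circles, replicate 2 as triangles and a bar at the mean of 2 libraries. Anxa6 is highest in both Ctrl DM3 libraries (205 and 218), and the spread between replicates is widest in Ctrl GM for Anxa2, Anxa4 and Anxa8.

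Differentiation of control cells called 0 of the 10 genes by limma, while 3 had an unadjusted p under 0.05 and 1.14% of the 13824 genes tested were called, with 2520 at an unadjusted p under 0.05. Anxa6 stood at 122 and 114 FPKM in Ctrl GM and 205 and 218 in Ctrl DM3, without overlap (0.84, SE 0.19, adjusted p = 0.102). Anxa5 stood at 299 and 377 in Ctrl GM and 190 and 222 in Ctrl DM3 (-0.71, adjusted p = 0.204), and Anxa8 at 124 and 40.3 against 20.4 and 22.4 (-1.72, SE 0.53, adjusted p = 0.187). All libraries of Anxa5 and Anxa8 were thus lower at DM3. Libraries of 3 genes lay wholly above and of 4 wholly below those of Ctrl GM, beside 24.8% and 22.4% of all genes.

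The remaining genes in control cells gave wider or smaller differences that were not called. Anxa1 stood at 363 and 450 FPKM in Ctrl GM and 267 and 315 in Ctrl DM3, Anxa2 at 228 and 504 against 205 and 228, and Anxa4 at 126 and 67.2 against 64.0 and 65.1. Myof stood at 36.3 and 16.3 against 40.9 and 31.0, and Dysf at 2.24 and 0.684 against 3.06 and 1.99. Trim72 stood at 1.16 and 0.185 against 2.63 and 2.56, and Cav3 at 0.326 and 0 against 0.378 and 0.831, both wholly higher at DM3. Cav3 rested on 12, 0, 12 and 16 reads in these libraries and passed the filter through 2 libraries, Ctrl DM3 replicate 2 and Cas9M3 GM replicate 1. A fit without 1 of the Ctrl GM libraries leaves that group with 1 library, so only differences are given. Without replicate 1, which keeps the library in which Gm23935 took most reads, they were -0.87 for Anxa5, 0.89 for Anxa6 and -0.91 for Anxa8. Without replicate 2 they were -0.54, 0.79 and -2.54.

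Differentiation of knockdown cells called 0 of the 10 genes by limma, with 2 at an unadjusted p under 0.05, 0.0289% of all genes called and 1748 at an unadjusted p under 0.05. Anxa5 went from 258 and 284 FPKM in Cas9M3 GM to 170 and 194 in Cas9M3 DM3 (-0.58, adjusted p = 0.381), and Anxa8 from 186 and 110 to 44.9 and 52.6 (-1.55, adjusted p = 0.305). Libraries of both genes were lower at DM3 without overlap, as they were in control cells. Leaving out either Ctrl GM library, which enters only through the shared spread, gave a call for Anxa8 (adjusted p = 0.0447 and 0.0454). The libraries of 5 of the 10 genes were wholly lower at DM3, beside 24.1% of all genes.

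In GM, the knockdown called 0 of the 10 genes and 0% of all genes by limma, with 0 members and 1244 genes at an unadjusted p under 0.05. Cas9M3 GM libraries stood at 360 and 285 FPKM for Anxa1, 242 and 332 for Anxa2, 96.5 and 61.0 for Anxa4, 133 and 140 for Anxa6, 36.1 and 34.6 for Myof and 3.85 and 1.16 for Dysf. Those of Anxa6 lay above and those of Anxa1 and Anxa5 below the Ctrl GM libraries, beside 15.6% and 13.8% of all genes. The other genes overlapped. Compared within replicate numbers, Anxa8, Dysf and Cav3 were also higher and Anxa4 lower in the knockdown for both numbers. The labels do not state such pairs, and the share of all genes with the same direction for both numbers was not counted. In replicate 2, Cav3 rested on 2 reads in the knockdown and 0 in the control. The fit with the replicate block called 0 of the 10 genes. Trim72 (1.39 and 0.0244) and Cav3 (0.575 and 0.0941) rested on 1 and 2 reads in replicate 2, against 98 and 21 in replicate 1.

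At DM3, the knockdown called 0 of the 10 genes by limma, with 1 at an unadjusted p under 0.05, 1.98% of all genes called and 2429 at an unadjusted p under 0.05. That gene was Anxa6, at 111 and 129 FPKM in Cas9M3 DM3 and 205 and 218 in Ctrl DM3 (-0.82, SE 0.19, adjusted p = 0.0879). Anxa8 stood at 44.9 and 52.6 against 20.4 and 22.4 (1.18, adjusted p = 0.328), and Trim72 at 0.386 and 0.152 against 2.63 and 2.56 (-2.94, SE 1.24, adjusted p = 0.297), with 24 and 5 reads against 161 and 95. Anxa6 and Trim72 libraries were lower and those of Anxa8 higher in the knockdown, without overlap. With the 2 groups fitted alone by limma, which takes the spread from these groups only, Anxa6 (adjusted p = 0.0205), Anxa8 (0.00654) and Trim72 (0.00802) were called. The estimates were the same, and the share of all genes called in that fit is not given here. Leaving out either Ctrl GM library acts only through the shared spread and left the Anxa6 difference at -0.82. Fibre markers, which summed to 644 FPKM in both Ctrl DM3 libraries and to 19.7 and 14.7 in Cas9M3 DM3, moved with Anxa6 and Trim72, and their part was not tested.

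For the remaining genes at DM3, Cas9M3 DM3 libraries stood at 360 and 343 FPKM for Anxa1, wholly above Ctrl DM3, and at 163 and 203 for Anxa2, 62.0 and 59.9 for Anxa4, 1.503 and 1.57 for Dysf and 0.0620 and 0.235 for Cav3, wholly below it. Anxa5 (170 and 194) and Myof (33.9 and 32.1) overlapped with it. In all, libraries of 2 genes lay above and of 6 below, beside 29.3% and 34.2% of all genes. The effect of the knockdown at DM3 minus that in GM was -1.03 for Anxa6 (SE 0.26, adjusted p = 0.371), and limma called 0 of the 10 genes and 0% of all genes for this difference, with 1 member and 1198 genes at an unadjusted p under 0.05.

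Of the companion lists in control differentiation, Cavin2 (2.98, SE 0.30, adjusted p = 0.0223) and Cavin4 (1.40, SE 0.16, adjusted p = 0.0258), both coat proteins of caveolae, were higher at DM3 among 6 caveolins and cavins. Ehd4 (1.66, SE 0.18, adjusted p = 0.0228) was higher among 14 dysferlin partners and trafficking genes, and 0 genes were called in the other lists. Of all genes tested, 1.14% were called in this comparison. At DM3, the knockdown had lower Cavin4 (-1.13, SE 0.16, adjusted p = 0.0314) and higher Smpd1, an acid sphingomyelinase (1.17, SE 0.17, adjusted p = 0.0354), beside 1.98% of all genes called. The highest genes of the lists in these cells were S100a11, Lamp1, Cav1, Capns1, Chmp4b and Anxa3. Across the 8 C2C12 libraries, the genes most like the members were Nicn1 for Anxa1 (0.952), Naa10 for Anxa2 (0.996), H2-M9 for Anxa4 (0.986), Cenpv for Anxa5 (0.995), Myorg for Anxa6 (0.967), Ano10 for Anxa8 (0.988), Retreg3 for Cav3 (0.982), Kif1c for Dysf (0.973), Nedd4 for Myof (0.990) and Tmem182 for Trim72 (0.982).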

How the data were processed

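The 10 muscle and 8 C2C12 libraries were prepared with a SMARTER mRNA-Seq kit per the labels. Alignment to GRCm38 (HISAT2), read counting per gene (featureCounts) and the deposited FPKM values (DESeq2) were the work of the authors, who scaled the experiments apart from each other, so values were compared only within an experiment. Tool versions are not given in the sources used here. The factor per library did not follow reads on genes alone. In muscle, 1 read on 1 kb was worth 0.0803 FPKM in day 0 replicate 1, which had 16780000 reads. It was worth 0.0507 FPKM in day 3 replicate 1, which had 14330000. Libraries of Mettl3-overexpressing and GFP cells were not analysed here.

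A gene was tested where 2 or more libraries reached 0.5 FPKM, which kept 16753 in muscle and 13824 in C2C12 cells, and 10 of the 10 members passed in each. Values of log2(FPKM + 0.1) were fitted with limma 3.58.1 (eBayes with trend, R 4.3.3), all groups of an experiment in one fit and without covariates, followed by Benjamini-Hochberg adjustment over all genes tested. The threshold for a call was an adjusted p of 0.05. A fold change on this scale understates the change of low genes. P-values measure the spread between the libraries, and nothing in the labels says that these came from separate animals or cultures. With 2 libraries per group, an exact permutation test of a single value cannot go below 0.333. In C2C12 cells, deviations of same-numbered libraries correlated at 0.278 to 0.680. Whether these were pairs or a difference common to all replicate 2 libraries cannot be told apart. The values given are from the fit without a replicate term unless a block is named.

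Reads were recovered from the steps of low FPKM values and GENCODE M21 exon lengths, which matched 53360 of 53465 and 55227 of 55487 gene identifiers, 96.5% to 98.7% of low values being whole within 0.02 of a read. They were used in no test. Promoter windows came from RefSeq (GRCm38.p6), and 9 of the 10 members had one. Itgam had 2 rows in muscle and was left out of the macrophage list there. Python 3.11.15, pandas 2.3.3, numpy 2.4.6 and matplotlib 3.10.9 were used.

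Alternatives were other pseudocounts, filters and scalings, fits of the compared groups alone, a replicate block, a log2 fold change of at least 2, an Xist term and each library left out. The members and lists were chosen with earlier results of these data known. Named were all members, of each companion list its highest gene and its called gene with the largest change at day 3 against day 0 and in control differentiation, and for each member the genes most like it, of which the text gives the first, except that of Anxa8 in muscle, which is not reported here. Companion genes named in other comparisons were chosen after their values were seen. Log2 fold changes of members are given where the unadjusted p was under 0.1 and at day 3 against day 0.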

Additional observations from a re-analysis of the deposited data

How the results depend on the processing

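With 2 libraries per group, calls near the threshold moved with the setting, and depth limits Anxa8 in muscle and Trim72 and Cav3 in C2C12 cells. Of 440 alternatives of the 22 called differences, 317 kept the call and 0 turned the direction. Not all of these alternatives could turn a direction. An estimate stays the same when a library of a group not compared is left out. The same holds when only the compared groups are fitted or a log2 fold change of at least 2 is required. Median-ratio scaling hardly changed the values, with 8172 of all genes called in place of 8179 at day 3 against day 0. The 317 thus partly counts near repeats of the main fit. Of the differences given that were not called, Dysf (-0.0084 to 0.57) and Trim72 (-0.24 to 0.40) at day 3 against day 0 changed sign when single libraries were left out. Of the 68 not given as log2 fold changes, 32 changed sign and 5 were called under at least 1 alternative. Day 3 against day 0 stayed within 1.5 times of 6 genes called. For the other comparisons the cause was not tested.

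At day 1 against day 0, 0 genes were called in place of 3 with no filter on low values, with the compared groups alone or with the Xist term, and 0 to 4 with a library left out. At day 5 against day 0, 1 was called in place of 6 with no filter, 2 with a log2 fold change of at least 2, 0 with the Xist term and 0 to 6 with a library left out. At day 3 against day 1, 1 was called in place of 2 with no filter or a log2 fold change of at least 2, 4 with the compared groups alone or the replicate block, 0 with the Xist term and 0 to 5 with a library left out. At day 5 against day 3, 0 were called in place of 1 with a pseudocount of 0.01, no filter, a log2 fold change of at least 2 or the Xist term, 5 with the compared groups alone and 0 to 1 with a library left out. At day 10 against day 3, 2 were called in place of 4 with a log2 fold change of at least 2, 1 with the Xist term and 1 to 5 with a library left out. At day 10 against day 0, 0 were called throughout.

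In C2C12 cells, 0 to 4 genes were called in control differentiation, 0 to 1 in knockdown differentiation and 0 to 1 for the knockdown at DM3 with a library left out, and 3 for the last with the compared groups alone. The knockdown in GM and the difference between media had 0 throughout. The replicate block changed no other call of these counts by over 1.5 times, with 0 called in each C2C12 comparison. In muscle, samples shared only a number, with correlations of -0.0187 to 0.211 between the deviations of same-numbered libraries, and the block gave 2 at day 1 against day 0 and 5 at day 10 against day 3.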
